A study of Homo sapiens with 4 samples.

Results

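The amino acid transporter genes of the families SLC1A, SLC3A, SLC7A, SLC36A, SLC38A and SLC43A were followed in U2OS cells, an established human osteosarcoma line. Members were all genes of the 6 families whose symbol is a family name and a number, and 40 of the 39519 genes in the table met this rule, whatever their values. U2OS cells with an inducible short hairpin RNA against PURB (sh-PURB), a single-stranded nucleic acid binding protein, received doxycycline at 5 µg/ml, and cells with the control hairpin (sh-NC) received DMSO. Both groups were profiled by RNA-seq at 72 h, with 2 libraries each. Doxycycline and the knockdown cannot be told apart, because every sh-PURB library and no sh-NC library had the drug. The labels do not say whether replicates were separate cultures or whether both sh-PURB libraries carried the same hairpin. The limma p-values thus rest on the spread between the 2 libraries of each group, which may be technical. The fit also drew the spread of each gene towards that of the other genes.

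Values are in TPM, a share of all transcripts that is scaled by length, so levels can be compared between genes. TPM keeps no read depth, and the depth behind each value is unknown. The columns summed to 977570 to 981061 TPM, and 13299 to 14208 rows reached 1 TPM in a library. PURB itself stood at 5.29 and 6.55 TPM with sh-NC and 2.46 and 2.69 TPM with sh-PURB, which is 43.5% of the control mean (limma adjusted p = 0.102, exact two-sided permutation p = 0.333, the smallest that 2 against 2 libraries allow). Of 7 mesenchymal and bone lineage markers, 5 were at 1 TPM or more in every library, and the list summed to 531 to 623 TPM. COL1A2 and ALPL were below 1 TPM in all libraries. The blood markers summed to 0.756 to 1.68 TPM, the endothelial markers to 0.298 to 0.848 TPM, the epithelial markers to 4.41 to 6.29 TPM and the glial and neural markers to 2.91 to 4.80 TPM.

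Cells import amino acids through carriers with overlapping substrates. Members of SLC1A and SLC38A use the sodium gradient to concentrate glutamate, glutamine and small neutral amino acids, and SLC7A light chains then exchange such amino acids for others. Most of these light chains reach the cell surface only when joined by a disulfide bond to a heavy chain of the SLC3A family. Some SLC36 and SLC38 proteins work instead on lysosomes, where they release amino acids or take part in sensing them for mTORC1, the kinase complex that couples growth to nutrients. When amino acids run short, the kinase GCN2 raises translation of the transcription factor ATF4, and several transporter genes are among its known targets.

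Of the 40 genes, 20 reached 1 TPM in at least 2 libraries and were tested, and these 20 were at 1 TPM or more in all 4 libraries. SLC1A5, SLC7A5, SLC7A11, SLC1A3 and SLC1A4 stood at 1.89 to 2.10 times their control mean in sh-PURB, and SLC38A1, SLC7A2, SLC7A1, SLC7A6 and SLC3A2 at 1.39 to 1.70 times. In each of these 10 genes the lower sh-PURB library exceeded the higher control. The 10 other tested genes stood at 0.814 to 1.36 times control. SLC36A1, SLC36A4 and the SLC38 members of organelles were near or below the control level, with ratios of 0.814 to 1.07.

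Over all 14269 tested genes, limma called 12 genes higher (0.0841%) and 29 lower (0.203%) at an adjusted p under 0.05. None of the 20 tested transporters was among them. At an unadjusted limma p under 0.05, 10 of the 20 were higher and 0 were lower, where 5.77% of all tested genes were higher and 9.53% lower. Leaving out a library leaves 1 in its group, so only sizes are given for those fits. Without sh-PURB replicate 1 the median difference of the 20 in log2(TPM + 1) was 0.34, against -0.01 for all tested genes. It was 0.64 against -0.11 without sh-PURB replicate 2. Without sh-NC replicate 1 it was 0.44 against -0.10, and without sh-NC replicate 2 it was 0.44 against -0.02. The balance over all genes depended on the scaling. It was 1086 higher and 991 lower after median-ratio rescaling and 1533 higher and 862 lower when TPM was recomputed without the most abundant and the mitochondrial genes, and both kept the members' counts at 10 and 0. Both sh-PURB libraries lay above both controls for 12 of the 20 and below them for 1, against 18.6% and 29.3% of all tested genes. The median difference of the 20 genes in log2(TPM + 1) was 0.45, and that of all tested genes was -0.06. A second limma fit was made over the 11927 tested protein-coding genes after rescaling them to a common sum. It called 5 of the 20 transporters higher and 0 lower, where 1.33% of its genes were called higher and 2.15% lower. The 5 were SLC1A5, SLC7A5, SLC1A3, SLC1A4 and SLC7A11, with adjusted p-values from 0.00869 to 0.0483. That fit was already known to give more calls in these libraries when it was chosen.

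**Figure D1:**
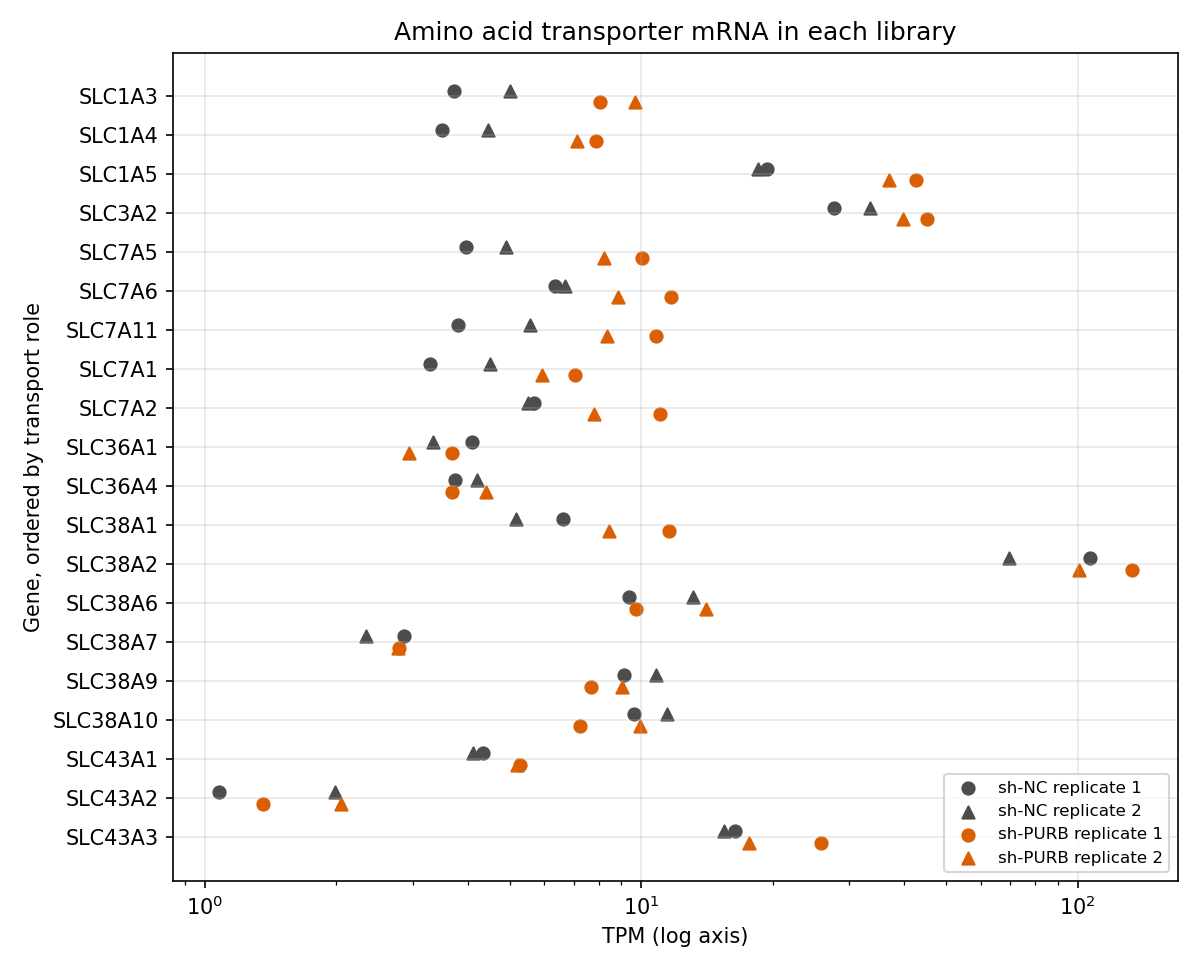
TPM on a log axis for the 20 tested amino acid transporter genes, with 1 point for each of the 4 libraries (circles replicate 1, triangles replicate 2; grey sh-NC, orange sh-PURB). SLC1A5 shows grey points at 19.4 and 18.6 TPM and orange points at 42.8 and 37.0 TPM, while the points of SLC36A4 and SLC38A6 are mixed.

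Because the genes that stood apart include known ATF4 targets, the core of the amino acid response element, TGATGNAA, was looked for on both strands of RefSeq promoter windows (GRCh38.p14, 250 bases before to 50 after a start site). The table held 53 windows for 31 of the 40 members. A match was present in 6 of the 53 windows (11.3%), 1 window in each of 6 genes, and in 3.62% of all 35116 windows. The 6 genes were SLC1A3, SLC1A4, SLC1A5, SLC3A2, SLC7A1 and SLC38A1, each of them among the 10 with an unadjusted limma p under 0.05. Of the other 4 of those 10, SLC7A5 and SLC7A6 had a window with no match, and SLC7A2 and SLC7A11 had no window. The 10 genes held 16 of the 53 windows, and the motif was looked for with their values known. The stretches around each match are shown to let the matches be compared, on the gene's own strand, with the 8 matching bases in capitals. In SLC1A4 and SLC3A2 the match is on the opposite strand and reads TTNCATCA:
SLC1A3: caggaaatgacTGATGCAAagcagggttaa
SLC1A5: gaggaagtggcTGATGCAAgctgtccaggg
SLC1A4: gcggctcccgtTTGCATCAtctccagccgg
SLC7A1: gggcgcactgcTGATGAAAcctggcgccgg
SLC38A1: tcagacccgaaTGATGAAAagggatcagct
SLC3A2: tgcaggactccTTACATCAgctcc

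SLC1A3, SLC1A4 and SLC1A5 carry the form TGATGCAA, which was in 0.866% of all windows, while SLC7A1 and SLC38A1 carry TGATGAAA. The longer forms TGATGNAAT and TGATGCAAT, and the cyclic AMP response element TGACGTCA, were in 0 of the 53 windows and in 0.991%, 0.236% and 1.85% of all windows. Coordinates in brackets are those of the printed stretches, in which other bases flank the 8 matching bases on both sides. Only the SLC7A1 start site is also the gene start of the GENCODE annotation, and its match starts at base 8 of the transcript (chr13:29595663-29595692, minus strand). The matches of SLC1A5 (chr19:46784893-46784922, minus strand), SLC38A1 (chr12:46266502-46266531, minus strand), SLC1A4 (chr2:64989381-64989410, plus strand) and SLC3A2 (chr11:62881725-62881748, plus strand) belong to start sites 3780, 3501, 922 and 25597 bases inside the gene. That of SLC1A3 (chr5:36596357-36596386, plus strand) belongs to a start site 9767 bases before the GENCODE gene. The end of the matched window lay outside GENCODE transcripts for SLC1A3 and SLC38A1, and inside one for the other genes. SLC1A3, SLC1A5 and SLC3A2 had 3 windows each, SLC1A4 and SLC38A1 had 2 each, and SLC7A1 had 1. A match is a description of letters in these windows, and binding was not measured here. Whether ATF4 acts on these genes was not tested. The matches to TGATGCAA in SLC1A5 and SLC1A4 belong to the pair of genes described first.

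SLC1A4 and SLC1A5 encode ASCT1 and ASCT2, which exchange small neutral amino acids across the cell surface. ASCT2 is known as a major route for glutamine into tumour cells, and SLC1A5 lies on chromosome 19 from 46774883 to 46788594 on the minus strand (GRCh38). SLC1A5 measured 19.4 and 18.6 TPM with sh-NC and 42.8 and 37.0 TPM with sh-PURB. The groups were far apart, and the gap between them was wider than the spread within either. The means were 19.0 ± 0.599 and 39.9 ± 4.04 TPM (SD, n = 2), a ratio of 2.10. The difference in log2(TPM + 1) was 1.03 with a standard error of 0.12 and a 95% interval of 0.71 to 1.34. Its limma adjusted p was 0.0552, the smallest among the transporters, and 0.00869 among protein-coding genes. It also passed at 0.0368 with a filter at TPM 5 and at 0.0424 with robust moderation in limma. SLC1A4 was much lower in level, at 3.49 and 4.44 TPM with sh-NC and 7.86 and 7.12 TPM with sh-PURB. Its groups did not overlap, and its ratio was 1.89 (limma adjusted p = 0.141 over all genes and 0.0421 over protein-coding genes).

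The other SLC1 genes encode carriers of the acidic amino acids glutamate and aspartate, best known for clearing glutamate at synapses. SLC1A3, which encodes EAAT1, was the only one of the 5 that was tested. It stood at 3.73 and 5.01 TPM with sh-NC and 8.04 and 9.66 TPM with sh-PURB. Both sh-PURB libraries were above both controls, with a ratio of 2.03 and a difference in log2(TPM + 1) of 0.88 (SE 0.19, limma adjusted p = 0.138 over all genes, 0.0335 over protein-coding genes). SLC1A1 and SLC1A6, which encode EAAT3 and EAAT4, lay the other way at low levels. SLC1A1 measured 0.636 and 0.918 TPM with sh-NC and 0.168 and 0.448 TPM with sh-PURB. SLC1A6 measured 0.743 and 1.16 TPM with sh-NC and 0.278 and 0.420 TPM with sh-PURB. Neither pair of groups overlapped, but with no filter on level the limma adjusted p was 0.478 for SLC1A1 and 0.419 for SLC1A6. SLC1A2 and SLC1A7 did not exceed 0.277 TPM in any library.

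SLC3A2 encodes the 4F2 heavy chain (CD98), the surface partner of most SLC7 light chains, and lies on chromosome 11 from 62856102 to 62888875 on the plus strand. It was the second most abundant of the 40 transporters, at 27.7 and 33.4 TPM with sh-NC and 45.2 and 39.8 TPM with sh-PURB. The groups did not overlap, but the gap was narrower than for SLC1A5. The ratio was 1.39 and the log2 difference 0.47 (SE 0.14, limma adjusted p = 0.234 over all genes and 0.0965 over protein-coding genes). The other heavy chain, SLC3A1, which pairs with light chains in kidney and gut, stayed between 0.0567 and 0.261 TPM.

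Of the 8 light chains, SLC7A5, SLC7A6 and SLC7A11 were tested. SLC7A5 encodes LAT1, which brings in leucine and other large neutral amino acids, and lies on chromosome 16 from 87830023 to 87869488 on the minus strand. It measured 3.97 and 4.91 TPM with sh-NC and 10.0 and 8.22 TPM with sh-PURB. The ratio was 2.05 and the log2 difference 0.89 (SE 0.18, limma adjusted p = 0.117 over all genes, 0.0290 over protein-coding genes). SLC7A11 encodes xCT, which exchanges glutamate for the cystine that feeds glutathione, and lies on chromosome 4 from 138164097 to 138242349 on the minus strand. It measured 3.80 and 5.56 TPM with sh-NC and 10.8 and 8.34 TPM with sh-PURB, and its mean was 2.05 times control. Its log2 difference of 0.91 (SE 0.22) had a 95% interval of 0.33 to 1.48, with limma adjusted p-values of 0.169 over all genes and 0.0483 over protein-coding genes. SLC7A6, which encodes y+LAT2, an exchanger of arginine for glutamine, measured 6.35 and 6.69 TPM with sh-NC and 11.7 and 8.84 TPM with sh-PURB. Its log2 difference was 0.57 (SE 0.17, limma adjusted p = 0.236 over all genes and 0.113 over protein-coding genes). In all 3 light chains both sh-PURB libraries were above both controls, and replicate 1 was the higher of the sh-PURB pair.

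Taken as a sum, the light chains stood further from control than the heavy chain SLC3A2 did. SLC7A6 alone was close to SLC3A2, with log2 differences of 0.57 and 0.47, and of 0.39 and 0.38 without sh-PURB replicate 1. The summed level of the light chains was 15.6 and 19.2 TPM with sh-NC and 33.4 and 26.8 TPM with sh-PURB. SLC3A2 stood at 1.77 and 1.74 times that sum in sh-NC and at 1.35 and 1.49 times in sh-PURB. The ratio was thus lower in both sh-PURB libraries, and it was chosen after the values of both genes were seen (exact two-sided permutation p = 0.333, the smallest possible). The 5 light chains that were not tested included SLC7A8, which encodes LAT2, at 0.291 and 0.738 TPM with sh-NC and 0.133 and 0.142 TPM with sh-PURB. SLC7A7 and SLC7A10 ranged from 0.289 to 0.741 TPM with groups that overlapped, SLC7A9 stayed at or below 0.0581 TPM, and SLC7A13 was listed at 0 in both sh-PURB libraries and at 0.0782 and 0.0182 TPM in sh-NC.

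The cationic group of SLC7 carries arginine, lysine and ornithine without a heavy chain. SLC7A1, which encodes CAT1, measured 3.28 and 4.49 TPM with sh-NC and 7.05 and 5.92 TPM with sh-PURB. SLC7A2, which encodes CAT2, measured 5.67 and 5.51 TPM with sh-NC and 11.1 and 7.80 TPM with sh-PURB. Neither gene's groups overlapped, and the 2 sh-PURB libraries of SLC7A2 differed more from each other than its controls did. The log2 differences were 0.62 (SE 0.19) and 0.65 (SE 0.20), with limma adjusted p-values of 0.246 and 0.235 over all genes and 0.106 for each over protein-coding genes. SLC7A3, which encodes CAT3, lay lower at 0.696 and 0.664 TPM with sh-NC and 0.398 and 0.444 TPM with sh-PURB, below the filter. SLC7A14 stayed below 1 TPM with mixed groups, and SLC7A4 was listed at 0 in all 4 libraries.

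**Figure D2:**
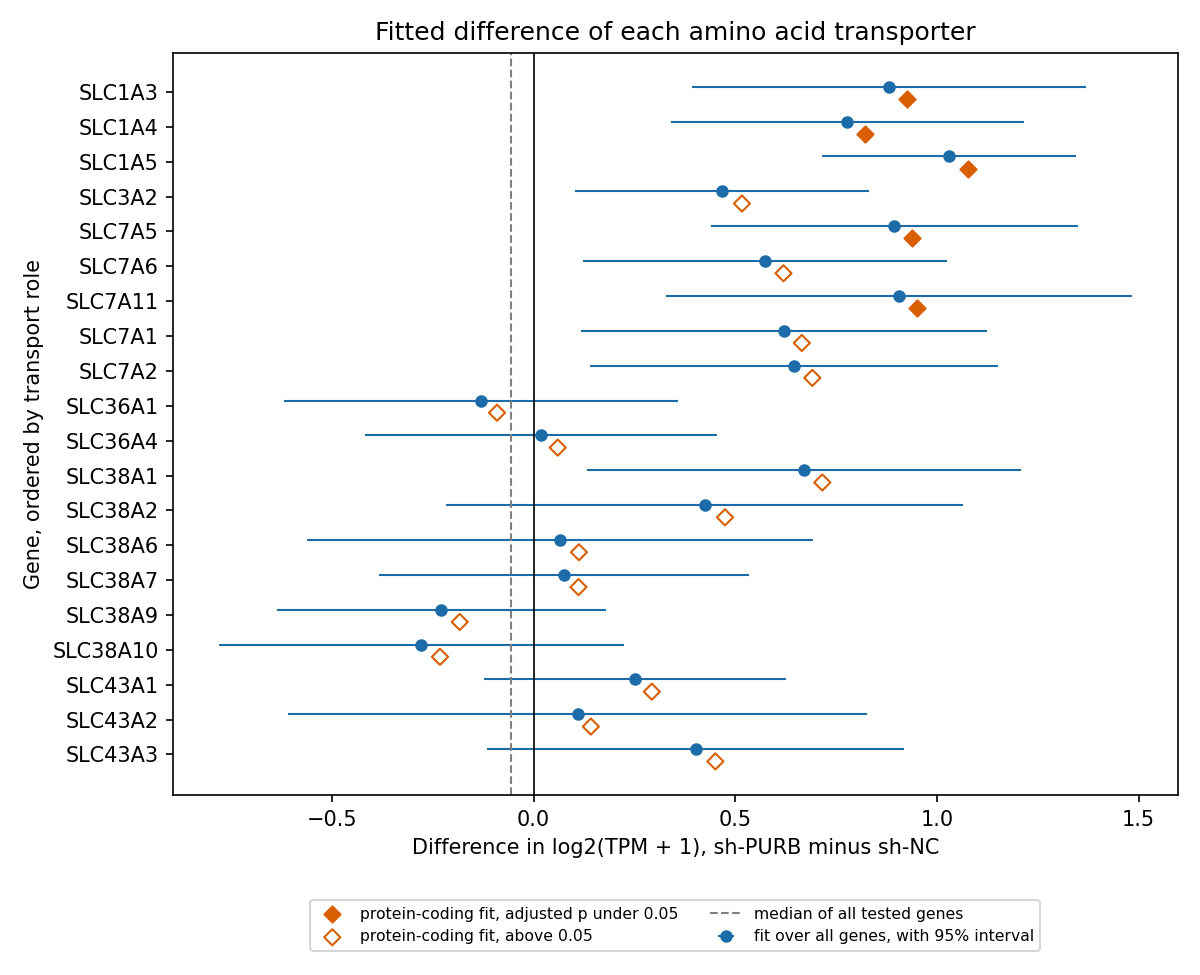
Difference in log2(TPM + 1), sh-PURB minus sh-NC, for the 20 tested genes, with the 95% interval of the limma fit over all genes (blue) and the value of the fit over protein-coding genes (orange diamonds, filled at an adjusted p under 0.05). The 10 SLC1A, SLC3A, SLC7A and SLC38A1 intervals lie above 0, and those of the other genes cross 0.

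SLC38A1 and SLC38A2 encode the sodium-coupled system A carriers SNAT1 and SNAT2, which concentrate glutamine and alanine in the cell, and are neighbours on chromosome 12 with SLC38A4. SLC38A2 was the most abundant transporter in every library and made up 29.3% to 41.7% of the summed TPM of the 40 genes. It measured 107 and 69.5 TPM with sh-NC and 133 and 101 TPM with sh-PURB. The groups overlapped, since replicate 1 of sh-NC exceeded replicate 2 of sh-PURB. Its log2 difference was 0.42 (SE 0.25, interval -0.22 to 1.06, limma adjusted p = 0.489), and it was 0.12 without sh-NC replicate 2 and 0.73 without sh-NC replicate 1. SLC38A1 measured 6.61 and 5.16 TPM with sh-NC and 11.6 and 8.45 TPM with sh-PURB, with no overlap. Its log2 difference was 0.67 (SE 0.21, limma adjusted p = 0.243 over all genes and 0.114 over protein-coding genes). SLC38A4, the third gene of the cluster, did not exceed 0.342 TPM, and the system N genes SLC38A3 and SLC38A5 did not exceed 0.250 TPM.

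The other SLC38 genes encode carriers of lysosomes and other inner membranes or are little studied. SLC38A9, a lysosomal arginine sensor that acts on mTORC1, measured 9.12 and 10.8 TPM with sh-NC and 7.69 and 9.03 TPM with sh-PURB. It was the only tested transporter with both sh-PURB libraries below both controls, by a small margin (log2 difference -0.23, SE 0.16, limma adjusted p = 0.560). SLC38A10 measured 9.65 and 11.5 TPM with sh-NC and 7.24 and 9.96 TPM with sh-PURB, with groups that overlapped and an adjusted p of 0.564 by limma. SLC38A6 measured 9.40 and 13.2 TPM with sh-NC and 9.71 and 14.1 TPM with sh-PURB, so that replicates of 1 group differed more than the groups did. SLC38A7, the lysosomal glutamine exporter, measured 2.86 and 2.34 TPM with sh-NC and 2.79 and 2.78 TPM with sh-PURB. Its log2 difference was 0.07, with an interval from -0.38 to 0.53. SLC38A11 stayed at or below 0.363 TPM, and SLC38A8 was listed at 0 in every library.

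SLC36A1 and SLC36A4 encode amino acid carriers of the SLC36 family. SLC36A1 is a proton-coupled carrier of small neutral amino acids, well known on lysosomes. SLC36A1 measured 4.09 and 3.34 TPM with sh-NC and 3.69 and 2.94 TPM with sh-PURB. SLC36A4 measured 3.74 and 4.20 TPM with sh-NC and 3.68 and 4.41 TPM with sh-PURB. Both genes had overlapping groups, with log2 differences of -0.13 (interval -0.62 to 0.36) and 0.02 (interval -0.42 to 0.45). SLC36A2 and SLC36A3 did not exceed 0.0830 TPM.

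The SLC43 genes encode sodium-independent facilitators. SLC43A1 and SLC43A2 encode LAT3 and LAT4, which carry large neutral amino acids, and SLC43A3 is known as a carrier of purine nucleobases. SLC43A1 measured 4.35 and 4.11 TPM with sh-NC and 5.27 and 5.18 TPM with sh-PURB, close within each group and apart between them. Its log2 difference was 0.25 (SE 0.15, limma adjusted p = 0.485). SLC43A3 measured 16.4 and 15.5 TPM with sh-NC and 25.8 and 17.7 TPM with sh-PURB, with the sh-PURB replicates far apart (log2 difference 0.40, adjusted p = 0.417 by limma). The difference was 0.14 when sh-PURB replicate 1 was left out and 0.66 when replicate 2 was. SLC43A2 measured 1.08 and 1.99 TPM with sh-NC and 1.36 and 2.06 TPM with sh-PURB, and its replicates differed more than its groups.

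**Figure D3:**
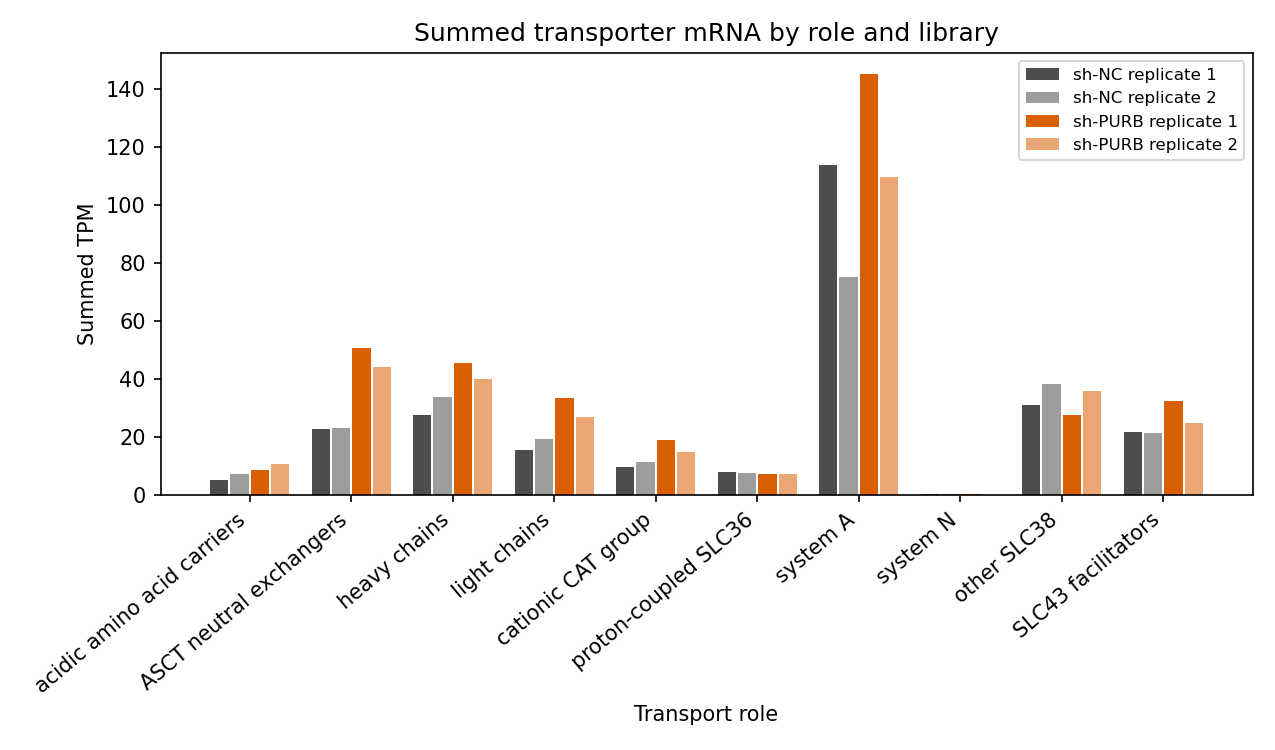
Summed TPM of the member genes in each transport role, with 1 bar for each library (grey sh-NC, orange sh-PURB, paler for replicate 2). The label proton-coupled SLC36 stands for the whole SLC36 family, whether or not each member is proton-coupled. The pair of ASCT genes summed to 22.9 and 23.0 TPM with sh-NC and 50.6 and 44.2 TPM with sh-PURB, while system A varied between replicates as much as between groups.

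Summed over all 40 genes, transporter mRNA was 256 and 237 TPM with sh-NC and 370 and 315 TPM with sh-PURB, a ratio of 1.39. The groups did not overlap, and SLC38A2, SLC3A2 and SLC1A5 together made up 51.2% to 60.0% of the sum. A larger share of transporter mRNA and a smaller amount of all other RNA per cell cannot be told apart in TPM, nor can changes within cells and changes in the mix of cells. Replicate 1 was the higher sh-PURB library in 9 of the 10 genes with an unadjusted p under 0.05, SLC1A3 being the exception, and in 14 of the 20 tested genes. Without that library the median difference of the 20 genes was 0.34, and without sh-PURB replicate 2 it was 0.64. Of the 20 genes below the filter, 18 were above 0 in some library and 2 were listed at 0 throughout. The sh-PURB pair was below the control pair in 7 of the 18 and above it in 2, against 18.3% and 11.7% of the 12937 genes below the filter and above 0. At these levels a listed 0 or a small difference can be a matter of few reads.

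Reads of near-identical or overlapping genes can be shared, and the strand setting was not given in the sources used here. SLC7A5P1, a pseudogene copy of part of SLC7A5, measured 1.53 and 1.07 TPM with sh-NC and 1.52 and 1.06 TPM with sh-PURB, so it did not move with the groups, and SLC7A5P2 was listed at 0. SLC7A6OS, which overlaps SLC7A6 on the opposite strand, measured 4.02 and 3.80 TPM with sh-NC and 4.02 and 3.79 TPM with sh-PURB. SLC7A11-AS1 and SLC38A2-AS1 did not exceed 0.124 TPM.

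Other genes of amino acid handling were set beside the transporters. Of 11 other cell-surface carriers 3 were tested, and SLC6A9, the glycine transporter GLYT1, measured 1.57 and 1.18 TPM with sh-NC and 3.44 and 2.96 TPM with sh-PURB (limma adjusted p = 0.159, unadjusted p = 0.00886). SLC6A15, a carrier of branched-chain amino acids, measured 3.17 and 3.68 TPM with sh-NC and 7.40 and 4.41 TPM with sh-PURB. The taurine transporter SLC6A6 had overlapping groups. None of these 3 was called. At an unadjusted limma p under 0.05, 5.77% of all tested genes were higher and 9.53% lower. The 11 tested mitochondrial carriers had a median log2 difference of 0.03, with 0 called and 2 higher at that p. These were SLC25A39, a mitochondrial glutathione carrier, at 1.23 times control and SFXN2 at 1.38 times. The 5 tested lysosomal carriers outside the families had a median of -0.02, with 0 called and 1 higher at an unadjusted p under 0.05, the sialic acid carrier SLC17A5 at 1.43 times control. Across lists the median of all tested genes was -0.06.

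All 26 genes of amino acid sensing to mTORC1 were tested, and their median log2 difference was 0.01. By limma 0 were called, and 1 was higher and 0 were lower at an unadjusted p under 0.05. Among all tested genes 5.77% were higher and 9.53% lower at that p, and the list exceeded neither share. The 1 higher gene was the leucine sensor SESN2, at 3.59 and 3.28 TPM with sh-NC and 7.0 and 5.42 TPM with sh-PURB. SESN3 measured 17.6 and 21.2 TPM with sh-NC and 8.39 and 15.7 TPM with sh-PURB, and RRAGA stood at 0.816 of control, neither past the threshold. Of 11 amino acid response factors, limma called 1 higher over all genes (ASNS, asparagine synthetase) and 5 over protein-coding genes, with 0 lower. Among all genes of those 2 fits, 0.0841% and 1.33% were called higher. The sh-PURB pair lay above the control pair for 8 of the 11 and below it for 1, and 2 overlapped. Among all tested genes 18.6% lay above and 29.3% below. ATF4 measured 164 and 152 TPM with sh-NC and 264 and 217 TPM with sh-PURB, and its inhibitory partner TRIB3 measured 4.31 and 3.22 TPM with sh-NC and 15.6 and 9.01 TPM with sh-PURB. The median log2 difference of this list was 0.60, next to 0.45 for the transporters. These lists were not tested against each other.

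**Figure D4:**
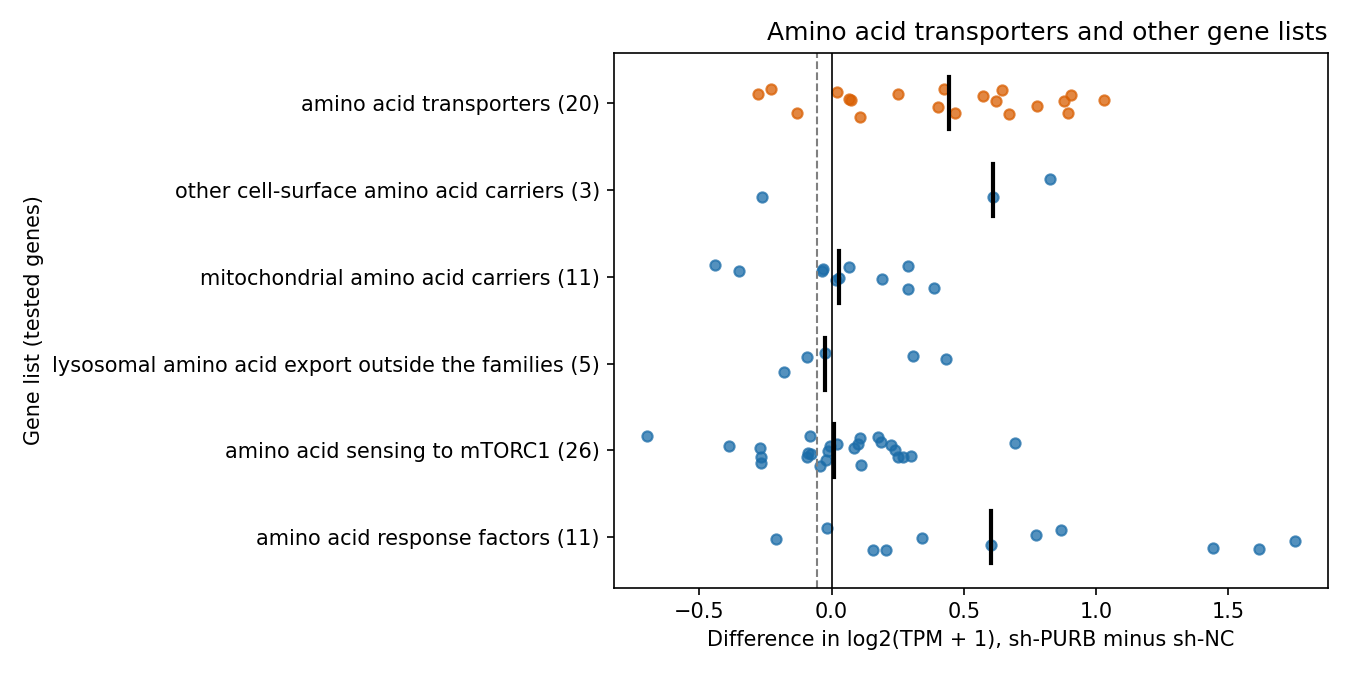
Difference in log2(TPM + 1), sh-PURB minus sh-NC, with 1 point for each tested gene and a black bar at the median of its list, for the transporters (orange) and 5 other lists (blue). The dashed line marks the median of all tested genes (-0.06), and the medians of the transporters and of the response factors are 0.45 and 0.60.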

How the data were processed

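RNA-seq of U2OS cells was analysed in 2 sh-NC and 2 sh-PURB libraries, grouped by title. Ribosomal RNA was removed before TruSeq library construction, per the labels' protocols. TPM values were deposited by gene symbol. The submitters' processing notes name the builds GRCh38 and GRCm38 and the tools kallisto 0.44.0, bcl2fastq 2.19, DESeq2 and sleuth, without their roles. Strand and annotation release are not given in the sources used here. The single-library tables equal the columns of the joint table in all 39520 rows. A row with a blank name (0.921% to 1.66% of a library) was left out.

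Genes reaching 1 TPM in 2 or more libraries (14269) were compared as log2(TPM + 1) in limma 3.58.1 (R 4.3.3) with an intensity trend, Benjamini-Hochberg adjustment over the 14269 genes and a threshold of 0.05. This scale understates changes of low genes. Tested on 20 simulated versions of this comparison (14269 genes, 200 of them altered), it recovered 5.70% of 2-fold and 58.8% of 4-fold changes in TPM + 1. In these versions 3.54% of its calls were false. The simulated noise followed the variance model of the fit and held no deviation shared by the genes of a library. The share of false calls in the real libraries is therefore not known. Sums and ratios used exact permutation tests. Named genes were all 40 members, PURB and up to 3 genes of the smallest p per other list. Members, lists and motifs were chosen with earlier results of these data known. Coordinates came from GENCODE 29 and promoter windows from RefSeq. Alternatives changed the pseudocount, filter, scaling, gene set, moderation, block and libraries.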

Additional observations from a re-analysis of the deposited data

How the results depend on the processing

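Over all genes 41 were called, and 40 with a pseudocount of 0.5. A pseudocount of 0.1, no filter and limma without the trend each gave 0 calls (at an unadjusted p under 0.05, 817, 1127 and 735 genes were higher and 1338, 1904 and 1354 lower), as did leaving out any library (0 to 0 calls), where 1 residual degree of freedom remains. A filter at TPM 5 gave 121, median-ratio rescaling 84 (32 higher, 52 lower, against 12 and 29), recomputed TPM 85 (38 higher, 47 lower), protein-coding genes only 416, robust moderation 125 and the replicate block 118. Among the transporters 0 were called, against 5 with protein-coding genes only and 1 (SLC1A5) with a filter at TPM 5 or robust moderation. The replicate block called 0 transporters, and the numbers were not taken as pairs, since deviations correlated at 0.19 over 2 pairs only. The transporters' median was 0.45. It was 0.60 with recomputed TPM and 0.60 with a filter at TPM 5, but 6 of the 16 genes left by that filter pass only through their sh-PURB values, so that median is not independent of the difference itself. It was 0.34 to 0.64 with each library left out. Recomputed TPM moved the median of all genes by 0.13, and relative to that median the transporters stood at 0.53 there and at 0.50 in the reported fit. PURB passed with protein-coding genes only (-0.91). Leaving out each library moved SLC36A4 from -0.086 to 0.12, SLC38A6 from -0.18 to 0.31, SLC38A7 from -0.029 to 0.18 and SLC43A2 from -0.15 to 0.37. The other 16 tested transporters kept their direction in every setting run, though not their size.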
